A study of Caenorhabditis elegans with 2 samples.

Results

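Binding of the homeodomain factor CEH-28 was examined at 7 genes known for roles in the M4 neuron of Caenorhabditis elegans or as targets of CEH-28. They are ceh-28, zag-1, ceh-32, ceh-34, eya-1, egl-17 and ser-7, all found by symbol among 19973 protein-coding genes of Ensembl WBcel235. For each gene, every peak summit in the gene body and 10 kb either side was taken, which is called the gene's window below. The data are chromatin immunoprecipitation with sequencing (ChIP-seq) of eGFP-tagged CEH-28 from whole L4 larvae of mixed sex, in 2 biological replicates of 1 group. Both replicates are of strain OP241, which carries the unc-119(ed3) mutation on chromosome III and the wgIs241 insertion with tagged ceh-28. No group without the transgene was analysed here. Chromatin came from whole animals, so binding in M4 cannot be told apart from binding in other cells, and the lists hold no expression with which to check for M4. Reads from the transgene and from the endogenous ceh-28 locus cannot be told apart. The lists give no read counts, so the depth behind each value is unknown.

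M4 is a motor neuron of the pharynx, the feeding organ, and drives the peristalsis of its narrow middle part, the isthmus. CEH-28 belongs to the NK-2 class of homeodomain factors, whose members bind DNA at sites with the core AAGTG. ZAG-1, a zinc finger homeodomain protein, is needed for the normal fate of M4. CEH-32 and CEH-34 are homeodomain proteins of the sine oculis family, and CEH-34 acts with its cofactor EYA-1 in the death of the sister cell of M4. The secreted growth factor EGL-17 and the serotonin receptor SER-7 are products of genes known to be expressed in M4.

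Only ser-7 had a thresholded summit in its window, and it lay 5579 bp upstream of the gene start, next to another gene. Thresholded here means in the authors' list of 1739 summits that passed the irreproducible discovery rate (IDR), a measure of agreement between replicates. Every pooled summit outside that list had a lower signal, at most 56.4902, than the lowest in it, 56.499. Membership thus followed the pooled signal. Among all protein-coding genes 23.5% had a thresholded summit in the same window, so 1 of 7 is not set apart from the background. No gene of the group had one in its promoter window, from 1000 bp upstream to 500 bp downstream of the start, against 3.85% of all protein-coding genes. The starts of the group lay a median of 79477 bp from a thresholded summit and those of all protein-coding genes a median of 36758 bp. The longest distances were 261156 bp at ceh-34 and 259768 bp at ceh-32, both on chromosome V, where the median over all genes was 82212 bp.

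Below that threshold, all 7 windows held summits of the pooled list, which holds 20803 peaks and background regions called from both replicates together. So did 94.0% of all protein-coding genes. The 7 windows held 29 pooled summits, which ranged from 1 at ceh-28 to 11 at zag-1, with a median of 3 against 4 over all genes. Replicate 1 alone gave 31 summits and replicate 2 alone gave 48, again with summits at every gene of the group, against 96.1% and 98.0% of all genes. The windows of the group were slightly longer than those of all genes, with medians of 24082 and 22027 bp. Their median of pooled summits per kb was 0.127, against 0.183 over all genes.

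The signal, a value per peak given by the authors on a scale that is not stated, was low at most of the 29 summits. Their median was 16.4, against 18.9 over all pooled summits and 89.8 over thresholded ones. In the pooled list and in replicate 1 the genes fell into a higher and a lower set. The highest pooled signal per window was 73.5 at ser-7, 53.6 at zag-1, 48.6 at eya-1 and 44.7 at egl-17. It was 18.8 at ceh-32, 16.4 at ceh-34 and 13.8 at ceh-28. Replicate 2 did not show this split, since its highest signals of 12.9 at ceh-34 and 12.2 at ceh-32 were above those of 10.1 at egl-17 and 9.99 at zag-1. The median pooled value of the 7 was 44.7, against 33.7 over the 18777 protein-coding genes with a pooled summit. Counting genes with none as lowest, ser-7 stood at or above 84.1% of protein-coding genes and ceh-28 at or above 7.93%. With 5 kb instead of 10 kb either side, the median of the highest pooled signals was 26.5 over 6 genes, against 27.7. A higher signal at the group was thus not established.

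**Figure D1:**
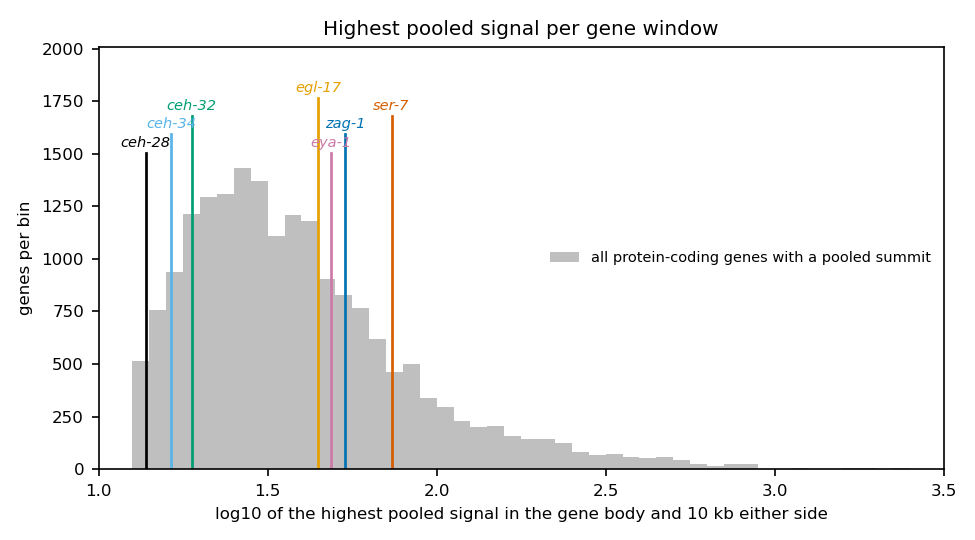
The x axis is the log10 of the highest pooled signal in each gene's window, with no stated scale, and the grey bars count the 18777 protein-coding genes with a pooled summit. Vertical lines mark the M4 genes, with ceh-28, ceh-34 and ceh-32 in the lower part of the distribution and egl-17, eya-1, zag-1 and ser-7 above its median of 33.7.

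Most of these summits lay closer to the start of another gene, also some that were inside zag-1. The start nearest to the summit was that of the gene itself at 8 of 29 pooled summits, and at the highest summit of 2 of 7 genes, ceh-32 and eya-1. Relative to the genes, 9 summits lay upstream, 7 in the gene body and 13 past the gene end. Nearest starts and sides were not counted for the windows of all genes, so these values cannot be called particular to the group. By annotation 10 lay in introns, 9 between genes, 3 in coding exons, 3 in 3' UTRs, 3 in non-coding exons and 1 in a 5' UTR. Introns held 34.5% of the 29, against 32.8% of all pooled summits, and the space between genes 31.0%, against 35.4%. Coding exons held 10.3%, against 19.2% of all pooled summits, and non-coding exons 10.3%, against 3.59%. A promoter window of any protein-coding gene held 24.1%, against 34.7% of all pooled summits. Of the group's promoter windows, 1 of 7 held a pooled summit, that of egl-17, against 34.1% of all protein-coding genes. In replicate 1 there were 3 such genes (ceh-28, ceh-34 and egl-17), against 36.9% of all genes, and in replicate 2 also 3 (eya-1, egl-17 and ser-7), against 38.7%. These counts are near the shares of all genes.

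**Figure D2:**
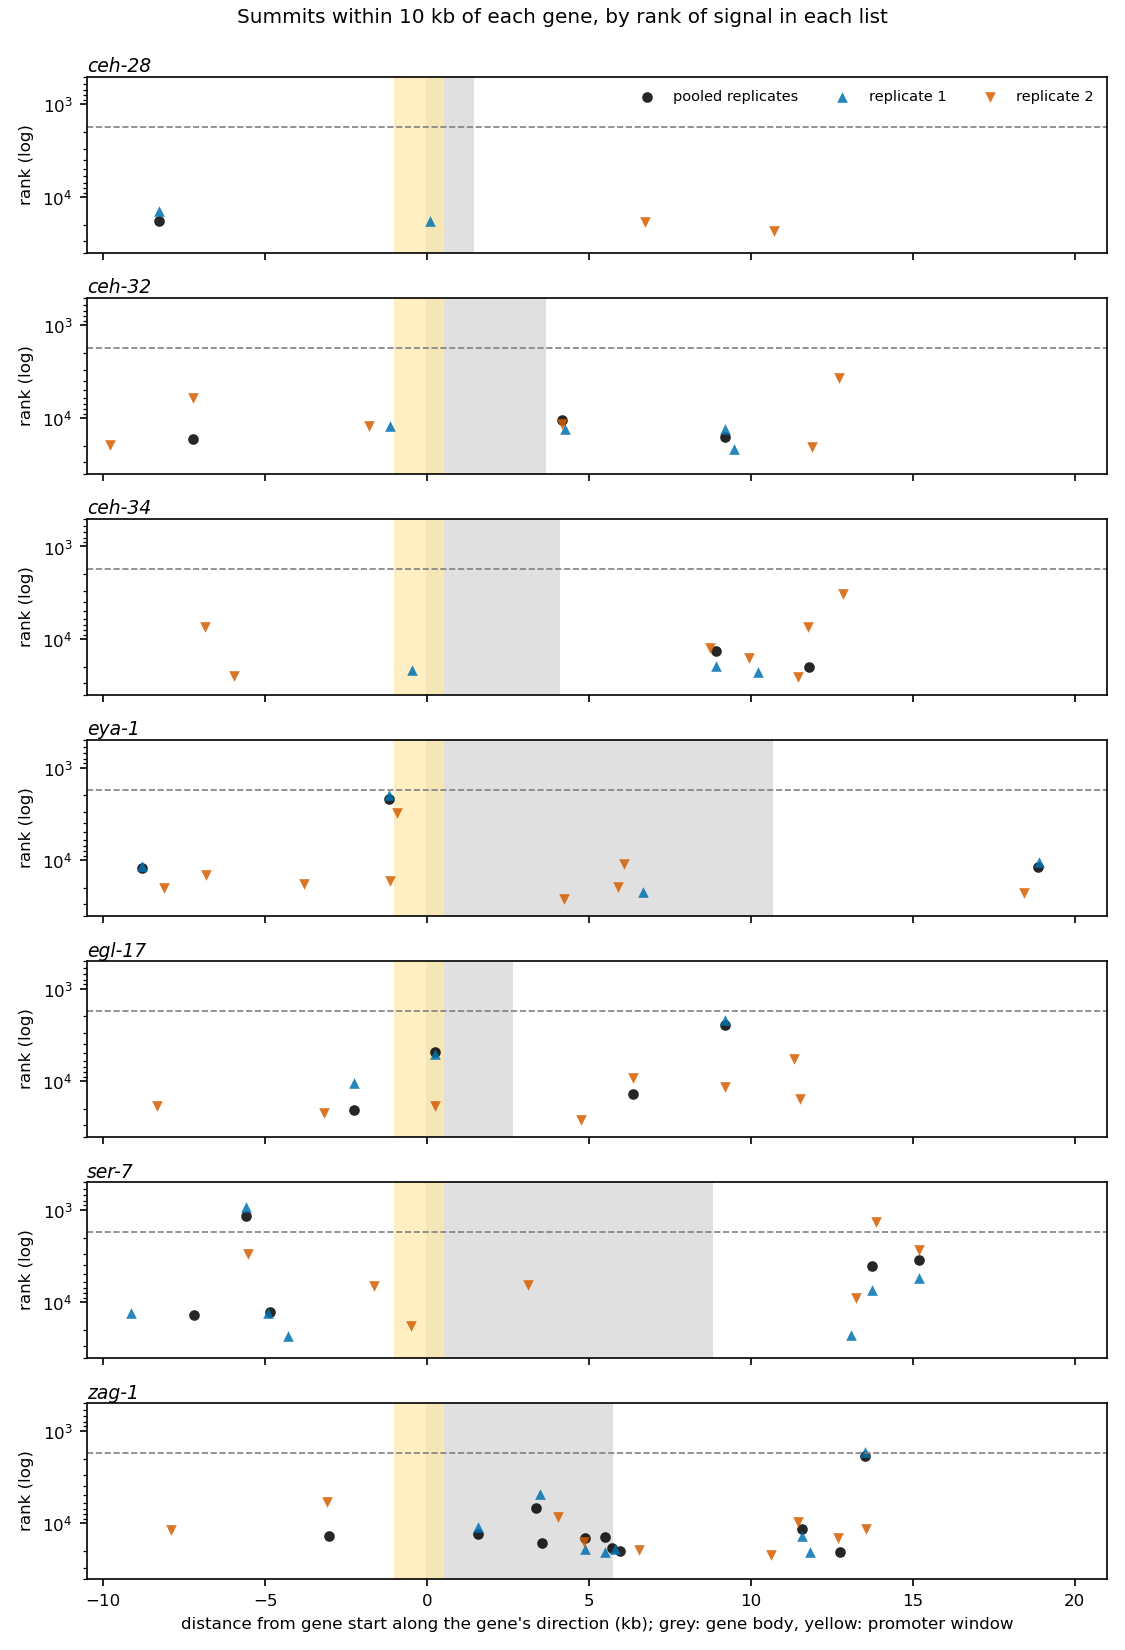
Each panel is a gene, with distance from its start in kb on the x axis and the rank of each summit by signal on an inverted log y axis, where rank 1 is the highest signal of a list. Circles are pooled summits, triangles up are replicate 1 and triangles down are replicate 2, grey bands are gene bodies, yellow bands promoter windows, and the dashed line is rank 1739, the last thresholded one. Only ser-7 has a pooled summit above the line, and zag-1, eya-1 and egl-17 have one just under it.

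The locus of the tagged factor itself held the fewest summits. At ceh-28 (X, 13074673 to 13076092, plus strand) the only pooled summit lay 8277 bp upstream in a coding exon of K03A11.5, with a signal of 13.8 at rank 18109. Replicate 1 had a summit there (signal 11.7, rank 14272), and no region of replicate 2 overlapped it. In replicate 1 alone a second summit lay 86 bp inside the gene, in a coding exon that overlaps the non-coding gene K03A11.8, with a signal of 10.1 at rank 18194 of 23410. Replicate 2 had summits 6746 and 10714 bp from the start (signals 5.82 and 5.10), neither in a region of replicate 1. No summit of this window was thus seen in both replicates. A window this empty was not rare, since 16.1% of all protein-coding genes had no more pooled summits than this. By the number of pooled summits and the highest signals in the 3 relaxed lists, the genes most like ceh-28 were wago-4, K09C4.1 and srh-248, with Euclidean distances over 4 z-scaled measures of 0.0603, 0.0725 and 0.0727, against a median of 2.33 over all other genes.

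At zag-1 the summits were many and mostly weak. ZAG-1 belongs to the ZEB family and takes part in the differentiation of several neurons. Its window (gene at IV, 3855843 to 3861569, plus strand) held 11 pooled summits, and 95.2% of protein-coding genes had no more than that. In the gene body lay 6 of them, with signals from 13.6 to 23.8. The strongest of these 6, in an intron 3355 bp from the start, had rank 6909 and matched a replicate 1 region of signal 21.8 at rank 4856, with no overlapping region in replicate 2. The same replicate 1 region also overlapped a second pooled summit, 3558 bp from the start. The highest summit of the window lay 7815 bp past the gene end, in an intron of F37C4.4, with a pooled signal of 53.6 at rank 1880. The last thresholded summit had a signal of 56.5. Replicate 1 gave it a signal of 43.4 at rank 1692 and replicate 2 a signal of 7.39 at rank 11595, with summits 1 bp from the pooled one in both. Its position was thus the same in both replicates and its rank was not.

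The sequence of that summit is shown because its only ATCGAT lies 15 bp from the summit. ATCGAT reads the same on both strands and was present within 100 bp of 76.1% of the thresholded summits, against 17.4% of windows 1000 bp to either side of them. The bases run 5′ to 3′ on the plus strand of WBcel235, 50 bp either side of the summit (chrIV:3869334-3869434), with ATCGAT in capitals.
zag-1 downstream summit: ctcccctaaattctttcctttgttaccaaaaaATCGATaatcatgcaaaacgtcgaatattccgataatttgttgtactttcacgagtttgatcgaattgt

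The pooled summits near the genes of the sine oculis family were weak and lay away from the starts of these genes. At ceh-32 (V, 11701764 to 11705400, minus strand) there were 3 pooled summits, with signals of 14.3, 18.8 and 14.9. The highest, 544 bp past the gene end at rank 10481, had a region in both replicates, with signals of 12.2 in replicate 1 and 7.41 in replicate 2. The one 7224 bp upstream lay in an intron of tre-3, a trehalase gene, and was matched by replicate 2 only, at signal 9.87. The one 5571 bp past the end and 496 bp upstream of W05E10.5, was matched by replicate 1 only, at signal 12.3. At ceh-34 (V, 5315496 to 5319577, minus strand) both pooled summits lay in ncx-2, a sodium-calcium exchanger gene, with signals of 16.4 in its 3' UTR and 13.0 in an intron. The first of them had replicate signals of 9.68 and 7.18 (replicates 1 and 2), with the replicate 2 summit 164 bp from the pooled one, and the second was matched only by replicate 2, at 9.07. In replicate 2 the strongest summits near these genes had no pooled region, with signals of 12.2 near ceh-32 (rank 3667) and 12.9 near ceh-34 (rank 3265). Closer to the starts lay summits of single replicates, none in a pooled region or a region of the other replicate. For ceh-32, replicate 1 had its highest summit 1142 bp upstream (signal 12.8, rank 12157). Replicate 2 had a summit 1807 bp upstream (signal 7.23, rank 12178). For ceh-34, replicate 1 had a summit 453 bp upstream, in the promoter window (signal 9.19, rank 21351). Near each of these genes, 1 pooled summit was thus seen in both replicates, at rank 10481 in the pooled list for ceh-32 and 13432 for ceh-34.

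Sites of the NK-2 class are shown for this group because CEH-28 is of that class. TCAAGTG or TTAAGTG was sought on both strands. Within 100 bp of a pooled summit it was found at 1 of 29 summits (3.45%, 95% Wilson interval 0.611 to 17.2), against 4.26% of all pooled summits and 4.29% of windows 1000 bp to either side of those. That summit is the one upstream of W05E10.5, where the centre of the site is 2 bp from the pooled summit. Promoter windows of 3 of 7 genes held a site, against 28.8% of all protein-coding genes. The nearest pooled summit to these promoter sites was 1496 bp away, at zag-1. The ceh-34 site, 500 bp upstream of the start, lay 47 bp from a summit of replicate 1 alone (signal 9.19, rank 21351), and the nearest summit of replicate 2 was 5456 bp away. Each line gives the strand that reads the site, 5′ to 3′, with the site in capitals.
ceh-32 site near the W05E10.5 start, chrV:11696178-11696204, plus strand: ggaacaatgcTTAAGTGgcggaattca
ceh-32 promoter site, chrV:11705006-11705032, plus strand: acattcgtttTTAAGTGaaccctattg
ceh-34 promoter site, chrV:5320064-5320090, minus strand: ttaatcaaacTCAAGTGatcatcacta
zag-1 promoter site, chrIV:3855910-3855936, plus strand: ctgcgcaaatTCAAGTGcccggaatgc

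In the 7 windows together there were 42 NK-2 sites and 42 copies of ATCGAT. The median of NK-2 sites per kb was 0.228 both here and over all genes. That of ATCGAT was 0.221 here, against 0.322 over all genes. Whole chromosomes held 0.215 copies per kb on X, where ceh-28, egl-17 and ser-7 lie, 0.341 on V, 0.377 on IV and 0.497 on I. The lower value here thus cannot be called particular to the group. Of the NK-2 sites, 2.38% had a pooled summit within 100 bp, against 3.97% over the genome. Of the ATCGAT copies, 16.7% (7 of 42) did, against 23.4% over the genome. By chromosome this share of copies was 17.7% on X, 19.1% on V, 22.2% on IV and 27.1% on I. ATCGAT was present at 24.1% of the 29 summits (interval 12.2 to 42.1), against 30.3% of all pooled summits. On the chromosomes of these genes the share of pooled summits was 17.8% on X, 28.8% on V, 31.9% on IV and 36.3% on I. In windows 1000 bp to either side, the values were 5.17% at the M4 genes and 8.73% over all pooled summits. The 7 summits with ATCGAT included all 4 that reached the highest −log10 q of the pooled list, 3.76, and 3 of the other 25. That value was reached by 13.9% of all pooled summits. A summit with it lay in 4 of 7 windows, against 37.5% of those of all protein-coding genes. Over all pooled summits, ATCGAT was present at 66.9% of those with that highest value and at 24.4% of the rest. In the pooled list the genes with ATCGAT at a summit were thus ser-7, zag-1, eya-1 and egl-17. The share of all genes with ATCGAT at a pooled summit was not counted. The windows of ceh-28, ceh-32 and ceh-34 held copies of ATCGAT (7, 4 and 6) but none at a pooled summit. In replicate 2 the highest summits of zag-1, eya-1 and egl-17 had no ATCGAT within 100 bp, and summits at ceh-28 (signal 5.82) and ceh-32 (signal 7.23) had it.

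**Figure D3:**
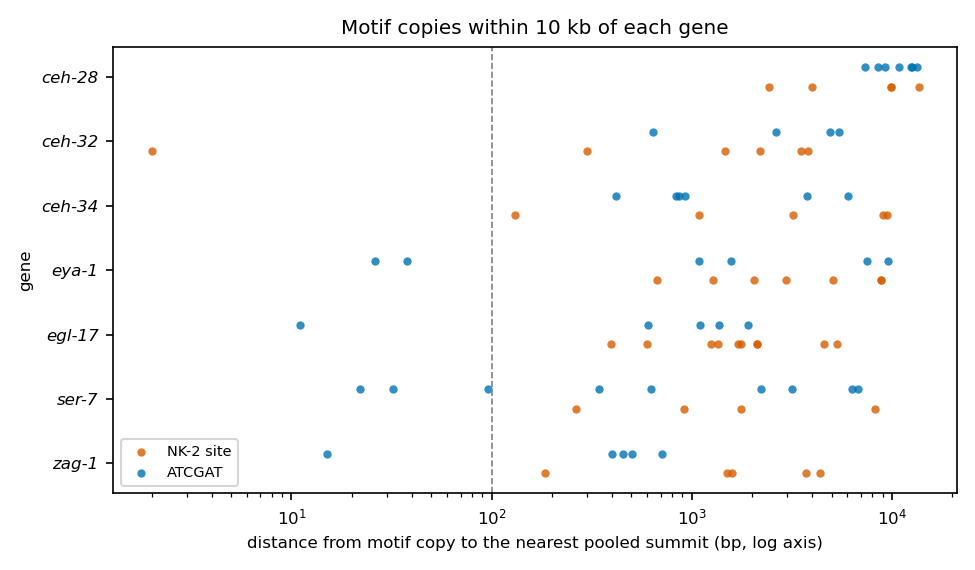
The x axis is the distance in bp, on a log axis, from each motif copy in a gene's window to the nearest pooled summit, and each row is a gene. Points are single copies of the NK-2 site or of ATCGAT, and the dashed line is 100 bp. Left of the line lie 7 ATCGAT copies, at ser-7, zag-1, eya-1 and egl-17, and 1 NK-2 site, at ceh-32.

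Near eya-1 a summit lay upstream of the gene, just outside the promoter window. EYA-1 is the worm homologue of Eyes absent, a cofactor of sine oculis family proteins. The gene lies on chromosome I (14220693 to 14231360, minus strand) and has 4 annotated transcript starts. Its pooled summit 1161 bp upstream had a signal of 48.6 at rank 2175, and eya-1 was the nearest gene. Replicate 1 had a summit of signal 38.98 at rank 1965 there, 1169 bp upstream. Replicate 2 had 2 regions over it, with signals of 6.19 (rank 16674) and, nearer the gene at 914 bp upstream, 13.2 (rank 3121). Both replicates thus had a region upstream of eya-1, and the stronger summit of replicate 2 was the nearer one to the gene. The other pooled summits of the window had signals of 17.3 in an intron of C49A1.5 and 17.5 near the start of best-10, a bestrophin family gene, each matched by replicate 1 only. In eya-1 itself lay 3 summits of replicate 2, with signals from 4.73 to 7.56, and 1 of replicate 1, with a signal of 9.05, and none of them was in a pooled region.

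**Figure D4:**
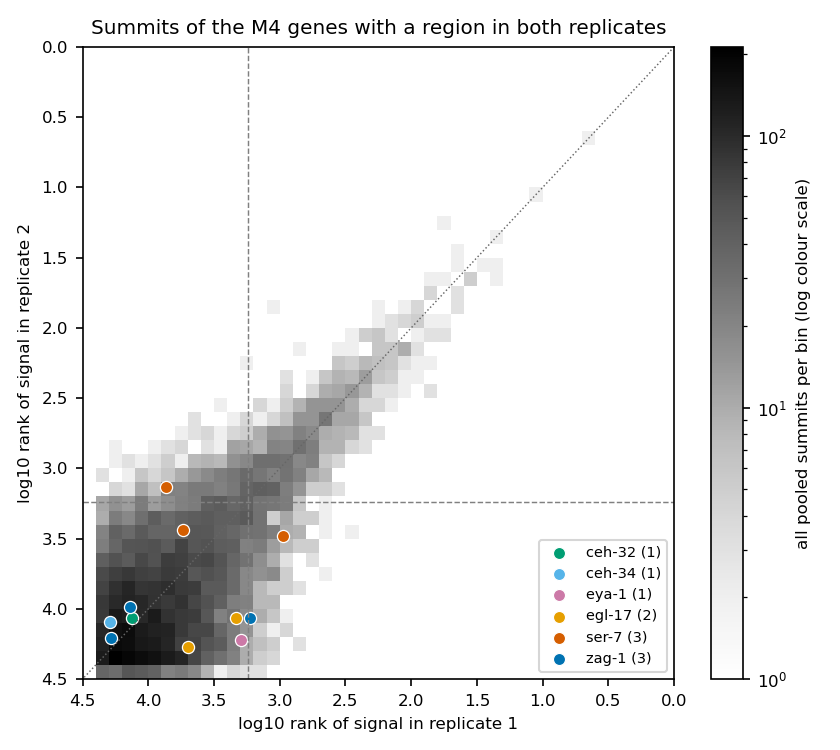
The x axis is the log10 rank by signal in replicate 1 and the y axis that in replicate 2, both inverted so that high signals are at the upper right, for pooled summits whose region overlaps one in each replicate. Grey cells count all such summits on a log colour scale, coloured points are the 11 of the M4 genes, dashed lines mark rank 1739 and the dotted line equal ranks. The higher summits of zag-1, egl-17 and eya-1 lie below the dotted line, with a higher rank in replicate 1, and 2 of the 3 ser-7 summits lie above it.

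At egl-17 the promoter summit fell on a tRNA gene. EGL-17 is a fibroblast growth factor known for guiding the migrating sex myoblasts, and its expression in M4 has been tied to CEH-28. The gene lies at 489685 to 492318 on X (plus strand), and its window held 4 pooled summits. The one in the promoter window lay 238 bp from the start, inside the tRNA gene WBGene00023035 (489868 to 489939, minus strand), with a signal of 29.2 at rank 4888. The replicates had summits 9 bp apart there, with signals of 21.5 (rank 5028) in replicate 1 and 5.81 (rank 18673) in replicate 2. Of 612 tRNA genes, 6.70% held a pooled summit and 18.6% had one within 100 bp, so a summit at a tRNA gene was not confined to egl-17. The highest summit, 6554 bp past the gene end, lay in the non-coding gene B0310.9 and had a signal of 44.7 at rank 2455. Replicate 1 gave 36.8 (rank 2157) and replicate 2 gave 7.38 (rank 11639) within 4 bp of it. The remaining summits had signals of 12.7 at 2249 bp upstream, seen in replicate 1 only, and 16.2 in an intron of B0310.1, seen in replicate 2 only.

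Both sequences of egl-17 run 50 bp either side of the summit on the plus strand and are shown to set the tRNA summit beside the ATCGAT summit. In the first the capitals are the bases of the tRNA gene, and it holds no ATCGAT. In the second they are ATCGAT, 11 bp from the summit.
egl-17 tRNA summit, chrX:489873-489973: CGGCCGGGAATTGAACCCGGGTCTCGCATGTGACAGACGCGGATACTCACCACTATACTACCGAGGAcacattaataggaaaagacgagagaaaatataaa
egl-17 downstream summit, chrX:498822-498922: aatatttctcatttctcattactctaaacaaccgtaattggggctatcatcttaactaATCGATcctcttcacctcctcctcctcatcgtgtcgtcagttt

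The window of ser-7 held the highest summits of the group in both replicates, at different places. SER-7 is a serotonin receptor that acts in pharyngeal motor neurons in feeding. The gene lies at 2673572 to 2682384 on X (plus strand), and none of its 5 pooled summits lay in the gene body. The thresholded summit 5579 bp upstream had a signal of 73.5 at rank 1167 and lay 134 bp upstream of the start of C09B7.2. Replicate 1 gave it 63.6 (rank 945), its highest value at the M4 genes. Replicate 2 gave 13.3 (rank 3036) with a summit 57 bp away, which is outside the highest 1739 of that replicate. The strongest summit of replicate 2 lay past the other end of the gene, with a signal of 20.01 at rank 1363, 244 bp upstream of immt-1, a mitochondrial inner membrane gene. The pooled summit there had 32.95 (rank 4034) and replicate 1 had 17.2 (rank 7324), the only one of the 11 shared summits with the lower signal in replicate 1. A further shared summit 227 bp upstream of T14G11.1 had a pooled signal of 35.8, with 20.4 in replicate 1 and 13.9 in replicate 2. All 3 shared summits were thus close to starts of neighbouring genes. The other pooled summits had signals of 16.9 in an intron of C09B7.2, seen in replicate 1 only, and 16.2 at 7188 bp upstream, in neither replicate. Closer to ser-7 itself, only replicate 2 had summits, 1644 and 483 bp upstream and 3119 bp inside the gene, with signals of 9.47, 5.94 and 9.51.

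The sequence at the thresholded summit is shown over 100 bp either side, because its ATCGAT lies near the edge, 96 bp from the pooled summit and 39 bp from that of replicate 2. The immt-1 sequence runs 50 bp either side of the pooled summit, with ATCGAT 22 bp from it. Both are from the plus strand, with ATCGAT in capitals.
ser-7 upstream summit, chrX:2667893-2668093: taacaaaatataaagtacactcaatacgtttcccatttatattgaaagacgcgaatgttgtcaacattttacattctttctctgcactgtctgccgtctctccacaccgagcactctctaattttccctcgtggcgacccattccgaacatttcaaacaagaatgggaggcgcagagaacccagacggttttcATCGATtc
summit near immt-1, chrX:2687263-2687363: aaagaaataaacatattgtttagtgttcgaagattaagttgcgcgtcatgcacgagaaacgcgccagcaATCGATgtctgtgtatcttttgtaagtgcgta

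The replicates were set side by side at the summits of these genes. Of the 29 pooled summits, 11 had a region in both replicates (37.9%, 95% Wilson interval 22.7 to 55.997), against 56.05% of all pooled summits and 99.7% of thresholded ones. A further 12 had a region in replicate 1 only, 5 in replicate 2 only and 1 in neither. The gap to all pooled summits was smaller under stricter rules. With at least 50% of each region covered the shares were 37.9% and 43.6%, and with summits within 100 bp they were 27.6% and 35.2%, so a lower agreement at these genes was not established. Of the 8 summits with a signal at or above the median of the pooled list, 87.5% were in both replicates. The share of all such summits was 80.8%, and with only 8 here no order was established. The 11 shared summits were at 6 of 7 genes, all but ceh-28. Of the replicate 1 summits in these windows 45.2% overlapped a region of replicate 2, and of the replicate 2 summits 29.2% overlapped one of replicate 1, against 52.3% and 47.1% over the whole lists. The signal was higher in replicate 1 at 10 of the 11, and at 92.8% of all shared pooled summits. The median ratio was 1.65, against 2.05 over all shared pooled summits. The scale is not stated, and the median signals of the whole lists were 13.1 in replicate 1 and 6.96 in replicate 2. The summits of zag-1, eya-1 and egl-17 that stood just under the threshold by pooled signal ranked 1692, 1965 and 2157 in replicate 1. In replicate 2 they ranked 11595, 16674 and 11639. For eya-1 the stronger of the overlapping replicate 2 regions ranked 3121. Pooled summits of rank 1740 to 2500, a range chosen after these values were seen, had a median rank of 2193 in replicate 1. In replicate 2 their median rank was 2900, with a 75th percentile of 5725 and a 95th of 15581.5. The replicate 2 values cover the 731 of 761 summits with a region there.

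Other genes of the M4 neuron, of the death of its sister cell, of the same homeodomain families and of the pharynx were looked at in the same way. Of 20 such genes, 7 had a thresholded summit in the window, against 23.5% of all protein-coding genes, in 6 separate regions, and 6 had a pooled summit in the promoter window, against 34.1%. Their median was 6 pooled summits and a highest pooled signal of 45.1. The cholinergic genes unc-17 and cha-1, which overlap, shared the highest one (signal 220, rank 237, 4740 bp upstream of unc-17). The FGF receptor gene egl-15 had 85.3 in an intron of ldb-1, and the NK-2 class genes ceh-22 and ceh-24 had 80.1 near gsp-1 and 62.8 near swan-1. The pharyngeal selector gene pha-4 had 60.0 in its own intron, 1306 bp from the start, and ceh-2 had 59.5 near ari-1.3. For dbl-1, a BMP ligand gene known as a target of CEH-28 in M4, the window held 6 pooled summits, 1 of them in the promoter window, with a highest signal of 27.6 and none that passed the threshold.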

How the data were processed

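Peak lists on ce11, the assembly of WBcel235, were used as deposited: 1 for each replicate (23410 and 26414 summits), 1 for the pooled replicates and the thresholded one. The signal and the −log10 q value of each peak are the authors' values, per the file layout. Both replicates were called against the same control, per the deposited notes. The aligner is not given in the sources used here, nor are the caller and the scale of the signal. The ce10 lists were not used.

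Summits were assigned to genes of Ensembl release 115, and sequences were read from the RefSeq copy of WBcel235. A pooled region was shared where it overlapped a region of each replicate by at least 1 bp, and the nearest such summit gave the replicate's values. No test was run: counts and medians stand beside those of all genes or summits. Wilson intervals cover counting error only and take summits as independent. All 7 genes were named, and other genes were named as holding or lying nearest to a summit, or from a list of 20. Sets of summits told apart by ATCGAT or by rank were formed after the values were seen. The genes, lists and motifs were chosen with earlier results of these data known. Counting, motif search and overlap were tested on simulated data. Python 3.11.15, numpy 2.4.6, pandas 2.3.3, scipy 1.17.1 and matplotlib 3.10.9 were used.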

Additional observations from a re-analysis of the deposited data

How the results depend on the processing

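Of 54 alternative values, 29 stayed within 1.5 times the main count, the Wilson interval of a share or the SD between the replicates alone, and 25 moved. The 1 gene with a thresholded summit became 0 with 5 kb either side (15.7% of all genes), with the gene body and promoter only (6.43%) and with thresholded summits whose signal was no lower than their median (11.7%), and 4 with the highest 5000 pooled summits, against 55.1% of all genes. The 1739 highest summits of each single replicate were also used in place of the thresholded list. They gave 1 gene in replicate 2 (23.3% of all genes) and 2 in replicate 1 (23.5%). Genes with a promoter summit numbered 3 in each replicate alone, against 38.7% of all genes in replicate 2 and 36.9% in replicate 1. With 2000 bp upstream, 2 genes had a promoter summit, against 43.9% of all genes. The median of summits per gene was 1 with 5 kb, against 2 over all genes, and 6 with 20 kb, against 8. It was 0 with gene body and promoter only, as over all genes. With pooled summits no lower than the median (the stronger summits) it was 1, against 2. In replicate 2 alone it was 7, against 6, and in replicate 1 alone 4, against 5. The median highest signal was 26.5 with 5 kb (6 genes with a summit), against 27.7 over all genes with one. It was also 26.5 with gene body and promoter only (2 genes), against 22.7. With 20 kb it was 44.7, against 43.8. In replicate 2 alone it was 12.2, against 11.5, and in replicate 1 alone 36.8, against 24.5, each on its own scale. The median signal of summits was 40.2 for the 8 stronger summits, against 28.3 over all such summits. It was 6.92 in replicate 2 alone, against 6.96, and 12.3 in replicate 1 alone, against 13.1. The share in both replicates was 87.5% of the 8 stronger summits, against 80.8% of all such summits, too few to establish an order. The ATCGAT share was 0% with gene body and promoter only (7 summits), against 30.3% of all pooled summits. At the 8 stronger summits it was 62.5%, against 43.6% of all such summits. It was 16.7% in replicate 2 alone, against 19.3%, and 22.6% in replicate 1 alone, against 28.2%. The NK-2 share was 0% with 5 kb (16 summits) and with gene body and promoter only (7 summits), against 4.26% of all pooled summits. At the 8 stronger summits it was also 0%, against 3.81%. It was 4.17% of 48 summits in replicate 2, against 4.14%, and 9.68% of 31 in replicate 1, against 4.19%. These are too few summits to establish an order. For each move the cause was not tested, and unknown depth limits all values. No paired analysis was possible because only 1 group was sampled.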
